A study of Mus musculus with 16 samples.

Results

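Mouse iPS clones made with the human artificial chromosome vector iHAC1 were compared with clones made with iHAC2, across every gene detected on the arrays. The members were chosen by sample title and not by any measured value. iHAC1 gave the 4 clones called 1-A3, 1-B, 1-C3 and 1-D6, and iHAC2 gave the 4 called 2-B1, 2-C6, 2-E and 2-N, so that 8 of the 16 arrays of the series belong to this comparison. The other arrays hold MEFs, 2 ES lines (B6ES, TT2), an iPS line made with retroviruses (20D17) and 4 iHAC-free iPS lines, and they entered the same fit and served as references for level.

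All 8 clones came from C57BL/6 MEFs that received a vector derived from human chromosome 21 by fusion with microcells of hamster donor cells. Both vectors carry EGFP and 2 copies each of Klf4, c-Myc, Sox2 and Oct4 cDNA, every copy driven by the constitutive CAG promoter and flanked by HS4 insulators. iHAC2 carries 2 more CAG-driven copies of Oct4 and a short hairpin RNA against p53 under the H1 promoter. Both groups were transfected with miR-294 and miR-295, and EGFP-positive colonies with ES-like form were picked and grown with LIF on growth-arrested feeder fibroblasts from ICR mice. The iHAC1 clones came from 1 transfer experiment and the iHAC2 clones from 2, and each array is 1 clone. The limma p-values rest on a spread pooled over all groups of the fit, among them the ES lines and the iHAC-free lines. The iHAC-free lines were derived from these same iHAC2 clones. With the compared groups alone in the fit, 5105 probes were called in place of 6270.

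Reprogramming of a fibroblast starts with the loss of mesenchymal genes and the gain of epithelial ones, and only later switches on the endogenous pluripotency network, the genes that guard the germ line and the enzymes that reset DNA methylation. Cells that stop on the way, often called partially reprogrammed, can divide and form ES-like colonies while the late network is silent and the transgenes are still on. p53, the target of the hairpin, restrains this process by arresting or killing cells under stress, largely through Cdkn1a.

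Levels below are log2 signals with the 75th percentile of the same array set to 0, and differences are the mean of the iHAC1-iPS clones minus the mean of the iHAC2-iPS clones on the log2 scale, with the standard error (SE) from limma. A gene was called when its adjusted p was under 0.05 and its groups differed at least 2-fold. Where a clone order is not repeated, 4 values stand for 1-A3, 1-B, 1-C3 and 1-D6 and the next 4 for 2-B1, 2-C6, 2-E, then 2-N. The iHAC1-iPS arrays had 61.7% to 62.0% of their spots well above background and the iHAC2-iPS arrays 54.2% to 59.9%. The iHAC1 arrays lie on slides 1 and 2 of the first scan session and the iHAC2 arrays on slides 3 and 4 of the second, so that scan session and vector cannot be told apart. RNA was extracted from whole cultures, in which fewer cells of a type and less RNA per cell cannot be told apart. Of the 8 markers for iPS or ES cells (Pou5f1, Nanog, Sall4, Cdh1, Epcam, Lin28a, Tdgf1 and Alpl), none was below background in a whole group. Their summed linear level, relative to the 75th percentile, was 115 to 124 in iHAC1-iPS and 75.6 to 140 in iHAC2-iPS clones. The same sum over 10 fibroblast markers was 201.2 to 495 in iHAC1-iPS and 99.5 to 305 in iHAC2-iPS clones, and 2 of these 10 were called higher in iHAC1-iPS, one of them Pdgfrb. The part of feeder or unconverted fibroblasts in the results was not tested.

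Of 21475 genes tested, 1815 (8.45%) were called higher in iHAC1-iPS and 2545 (11.9%) lower, 20.3% in all. Counts of called members in the gene lists below are to be read beside these shares. The median difference over all genes was -0.08. The large differences were mostly on the lower side, with 205 genes at least 16-fold lower against 41 at least 16-fold higher, and 38 against 2 at 64-fold. The lowest signal well above background was -5.77 to -5.32 on the iHAC1-iPS arrays and -5.07 to -4.35 on the iHAC2-iPS arrays. A Uty probe that no array of either group detected was called lower, at -1.66 (SE 0.30). The part of this unequal floor in the sizes, the calls and the counts without overlap was not tested. No iHAC1-iPS array detected 784 of the lower genes above background, and no iHAC2-iPS array detected 414 of the higher genes. Over all genes tested, these shares without detection were 13.3% for iHAC1-iPS and 15.5% for iHAC2-iPS. The groups did not overlap in 7089 genes (33%), and 3446 genes (16%) were both called and without overlap. Counted over 31415 probes, 6270 (20%) were called, 8.68% higher and 11.3% lower. Of these calls 43.5% were higher in iHAC1-iPS, and 54.9% of 6079 under quantile normalization.

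**Figure D1:**
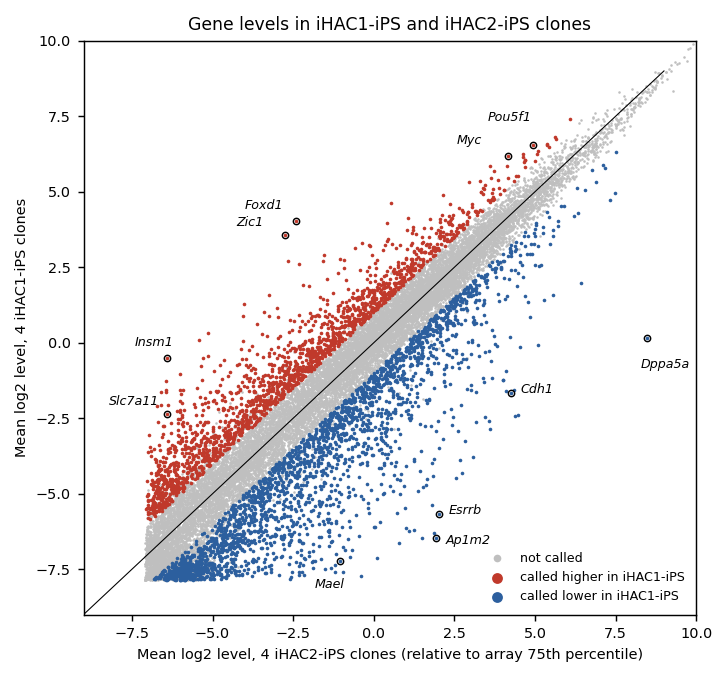
Mean log2 level of each of the 21475 genes in the 4 iHAC2-iPS clones (horizontal) and the 4 iHAC1-iPS clones (vertical), relative to its own 75th percentile, with called genes in red (1815 higher in iHAC1-iPS) and blue (2545 lower). The blue cloud reaches farther from the diagonal than the red one, and Foxd1 and Zic1 stand alone at the upper left.

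Many of the genes called higher were genes of fibroblasts, and many of those called lower were genes of ES cells. Of the 1815 higher genes, 594 (32.7%) were at least 4-fold higher on the MEF array than in the 2 ES lines and 45 (2.48%) at least 4-fold lower. Of the 2545 lower genes, 852 (33.5%) were at least 4-fold higher in the ES lines and 126 (4.95%) in MEFs. Among genes not called, the shares were 8.09% for MEFs and 4.65% for ES lines. The median level of the higher genes was -1.13 in iHAC1-iPS clones, -2.91 in iHAC2-iPS clones, -0.83 in MEFs and -2.42 in ES lines. For the lower genes it was -4.33 in iHAC1-iPS clones, -1.91 in iHAC2-iPS clones, -4.06 in MEFs and -2.42 in ES lines. The MEF and ES arrays were scanned in the session of the iHAC1-iPS arrays.

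Trp53 itself, the target of the hairpin, did not pass the test. Its brighter probe read 0.91, 0.98, 1.18 and 1.05 in the iHAC1-iPS clones and 0.55, 1.38, 0.66 and 1.03 in the iHAC2-iPS clones, and the 2 groups overlapped. The difference was 0.12 (SE 0.24, adjusted p = 0.708). A second Trp53 probe read lower in every iHAC2-iPS clone, with means of 0.96 and 0.46 and a difference of 0.50 (SE 0.15, adjusted p = 0.0202), short of 2-fold. At the brighter probe, Trp53 means were 2.08 in the ES lines and 1.44 in the iHAC-free iPS lines, which carry no hairpin. At the second probe these means were 0.77 and 0.25.

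Cdkn1a, which encodes the cell cycle inhibitor p21 and is the classic p53 target, read 3.19, 3.22, 2.94 and 3.16 in the iHAC1-iPS clones and 2.60, 2.81, 2.39 and 2.06 in the iHAC2-iPS clones. The groups did not overlap, and the difference of 0.66 (SE 0.21, adjusted p = 0.0287) stayed below 2-fold. Cdkn2a, which encodes the inhibitors p16 and p19ARF, differed by 0.92 (SE 0.28, adjusted p = 0.0212), also below 2-fold. Without 1-A3, 1-C3, 2-B1 or 2-C6 the Cdkn2a difference was 1.03 to 1.09 and passed. Mdm2, the ubiquitin ligase that degrades p53 and is itself induced by it, lay on the other side, at -0.50 (SE 0.18, adjusted p = 0.0402). Its levels were 2.16, 2.58, 2.18 and 2.09 against 2.83, 2.56, 2.73 and 2.91, so that 1-B reached into the iHAC2-iPS range.

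The 38 tested p53 target genes did not follow Cdkn1a. Of these, 9 were called lower in iHAC1-iPS and 1, the death receptor gene Fas, was called higher, with a list median of -0.48. Ddb2, which recognises ultraviolet damage in DNA, read -2.53, -2.59, -2.50 and -3.19 against -1.16, -1.47, -0.59 and -0.55, a difference of -1.76 (SE 0.23, adjusted p = 2.74e-04). Tnfrsf10b, the receptor for the death ligand TRAIL, differed by -1.68 (SE 0.32, adjusted p = 0.0022). The iHAC1-iPS clones were below all iHAC2-iPS clones for both genes. Fas differed by 1.28 (SE 0.39, adjusted p = 0.0232), and this call was lost without 1-A3, 1-B, 2-C6 or 2-N, where the difference was 1.05 to 1.16. A second, dimmer Fas probe, detected on all 4 iHAC1-iPS arrays and no iHAC2-iPS array, was called at 2.92 (SE 0.48, adjusted p = 0.00101). Of the 16 tested genes for p53 and its regulators, Hipk2, a kinase that phosphorylates p53, was higher by 2.90 (SE 0.51, adjusted p = 0.00134). The other called gene of that list, the p53 relative Trp63, was dim, with 3 iHAC1-iPS arrays and no iHAC2-iPS array well above background, and its call was lost without 2-E, where the difference was 0.98. A second Trp63 probe, detected on 1 iHAC2-iPS array and no iHAC1-iPS array, was called with the other sign, at -1.43 (SE 0.45, adjusted p = 0.0266).

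Pou5f1, which encodes Oct4 and has 2 more cassette copies in iHAC2, was higher in the clones whose vector has fewer copies. Klf4, Myc and Sox2 have the same number of copies on both vectors. Pou5f1 read 6.65, 6.57, 6.32 and 6.67 in the iHAC1-iPS clones and 4.47, 6.41, 4.94 and 3.89 in the iHAC2-iPS clones. 2-C6 lay within the iHAC1-iPS range, and the other iHAC2-iPS clones lay below it. The difference was 1.62 (SE 0.40, adjusted p = 0.00857), and the means were 3.78 in ES lines and 2.56 in iHAC-free lines.

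Myc read 6.58, 5.80, 5.84 and 6.53 against 3.67, 5.60, 3.52 and 3.93 at its brightest probe, a difference of 2.01 (SE 0.39, adjusted p = 0.00258). Again 2-C6 stood next to the iHAC1-iPS clones, and the groups did not overlap. A second Myc probe gave a difference of 2.19 (SE 0.44, adjusted p = 0.0028), and the remaining probe, far dimmer in the iPS clones, had -0.85 (SE 0.32, adjusted p = 0.055) and did not pass. Sox2 and Klf4 did not pass either, with differences of -0.85 (SE 0.50) and -0.75 (SE 0.46), though Sox2 was called at -1.34 without 2-E. 2-N was the clone with the highest Sox2 (3.62) and Klf4 (4.65), near the ES means of 3.55 and 5.40, while the 7 other clones ran from 0.41 to 2.02 for Sox2 and from 2.09 to 3.16 for Klf4. Probes within the coding part of a gene would read cassette and endogenous transcripts together, and the sources were not separated here.

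**Figure D2:**
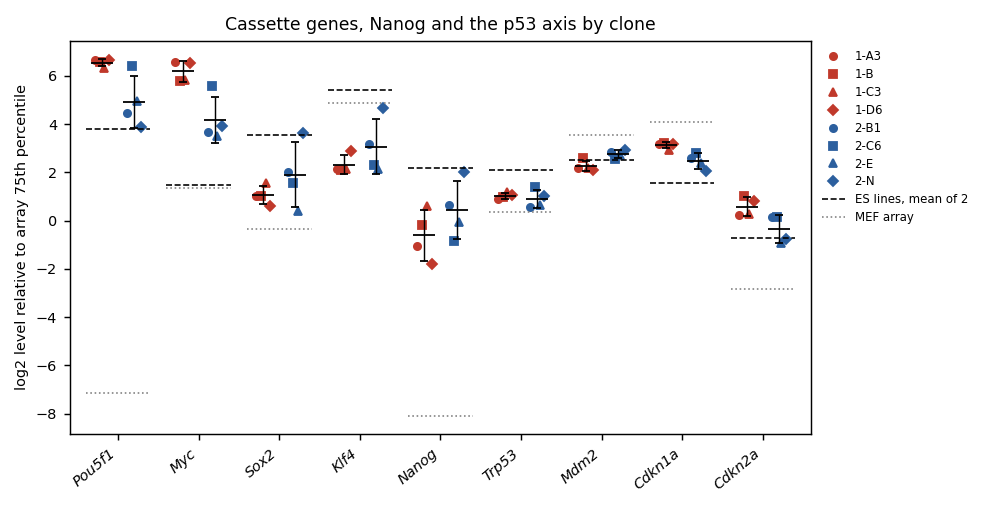
Log2 level relative to the array's 75th percentile for the 4 cassette genes, Nanog and 4 genes of the p53 axis, with a point for each clone (iHAC1-iPS red, iHAC2-iPS blue), black bars for the mean and SD of 4 clones, and lines for the ES mean and the MEF array. The red points for Pou5f1 and Myc sit above all blue ones except 2-C6 for Pou5f1, and Trp53 shows overlapping groups.

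Epithelial genes had the highest share of called members among the 70 lists, 89.5%. Of 38 tested genes for cell junctions, simple keratins and their regulators, 34 were called lower in iHAC1-iPS and the remaining 4 were not called. Their median difference was -3.98, beside -0.08 over all genes. It was -2.39 with 33 called after normexp correction, and 18 of 20 were called among probes above background on all 16 arrays. The mean level of the list was -4.11, -1.74, -1.95 and -3.55 in the iHAC1-iPS clones and 1.05, 0.65, 1.25 and 0.79 in the iHAC2-iPS clones. The groups were apart, and 1-A3 and 1-D6 were lower than 1-B and 1-C3.

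Cdh1, which encodes E-cadherin, the adhesion molecule that holds epithelial and ES cells together, read -7.42, 1.39, 1.56 and -2.25 in the iHAC1-iPS clones and 4.49, 3.64, 4.43 and 4.45 in the iHAC2-iPS clones. Only 1-A3 was not well above background, and all 4 iHAC1-iPS clones were below all iHAC2-iPS clones. The difference was -5.93 (SE 1.49, adjusted p = 0.00932). Epcam, a second epithelial adhesion molecule, showed the same order, with -2.53, 1.32, 1.15 and -1.70 against 3.29, 3.01, 3.60 and 3.12, and a difference of -3.70 (SE 0.70, adjusted p = 0.00216).

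Ap1m2, the epithelial subunit of the adaptor complex that sorts cargo to the basolateral membrane, had the lowest difference of all genes tested, -8.38 (SE 0.61, adjusted p = 1.1e-05). It read -4.82, -7.74, -5.82 and -7.47 in the iHAC1-iPS clones, with 1 of 4 arrays well above background, and 2.01, 0.49, 2.74 and 2.43 in the iHAC2-iPS clones. Rab25, an epithelial GTPase of recycling vesicles, differed by -6.35 (SE 0.35, adjusted p = 1.19e-06), and Pkp3, a desmosomal plaque protein, by -7.03 (SE 0.69, adjusted p = 5.96e-05). Rab25 was above background on 1 of 4 iHAC1-iPS arrays and Pkp3 on 2. The iHAC1-iPS clones lay between -5.93 and -5.50 for Rab25, close to the lowest signal well above background on these arrays (-5.77 to -5.32). This range therefore does not measure how alike the clones were, and it cannot be set against that of Cdh1.

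Regulators of the epithelial state were low as well. Grhl2, a transcription factor that activates Cdh1 and the claudins and was above background in 3 of 4 iHAC1-iPS clones, read -5.72, -2.45, -3.59 and -5.21 against 1.49, 1.67, 1.19 and 1.41, a difference of -5.68 (SE 0.55, adjusted p = 5.54e-05). Esrp1, which directs epithelial splicing, differed by -4.17 (SE 0.72, adjusted p = 0.00127), with 2 of 4 iHAC1-iPS arrays above background. Ovol1, which represses Zeb1, was at least 7.60-fold lower, since none of the iHAC1-iPS arrays detected it. Such bounds hold for the processed signal used here, and after normexp correction, which adds an offset of 50 to every signal, the Ovol1 difference was -1.17. Its relative Ovol2 differed by -2.23 (SE 0.23, adjusted p = 8.5e-05). The groups were apart for all 4 regulators.

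Tight junction and keratin genes showed which of their families belonged to this class. Among 17 tested claudins, 6 were called lower and 2 higher. Cldn7 differed by -5.70 (SE 0.63), Cldn6 by -5.35 (SE 1.20), Cldn4 by -5.96 (SE 0.56) and Cldn3 by -3.58 (SE 0.36), each with an adjusted p of at most 0.00535. Of the 4 iHAC1-iPS arrays, 1 detected Cldn4 and 3 detected Cldn6. Among 29 tested keratins, 13 were called lower and 1 higher, the 13 falling to 7 after normexp correction and to 8 after quantile normalization. They were led by Krt19 at -4.23 (SE 0.78, adjusted p = 0.00181) and the partners Krt8 and Krt18 of simple epithelia. Krt8 read -3.59, 2.19, 3.15 and -1.04 against 4.28, 4.46, 4.62 and 3.56, again with 1-A3 and 1-D6 lowest. Tjp1, which encodes the scaffold protein ZO-1 and is made in many cell types, was a member that did not pass, at -0.27 (SE 0.15, adjusted p = 0.183).

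**Figure D3:**
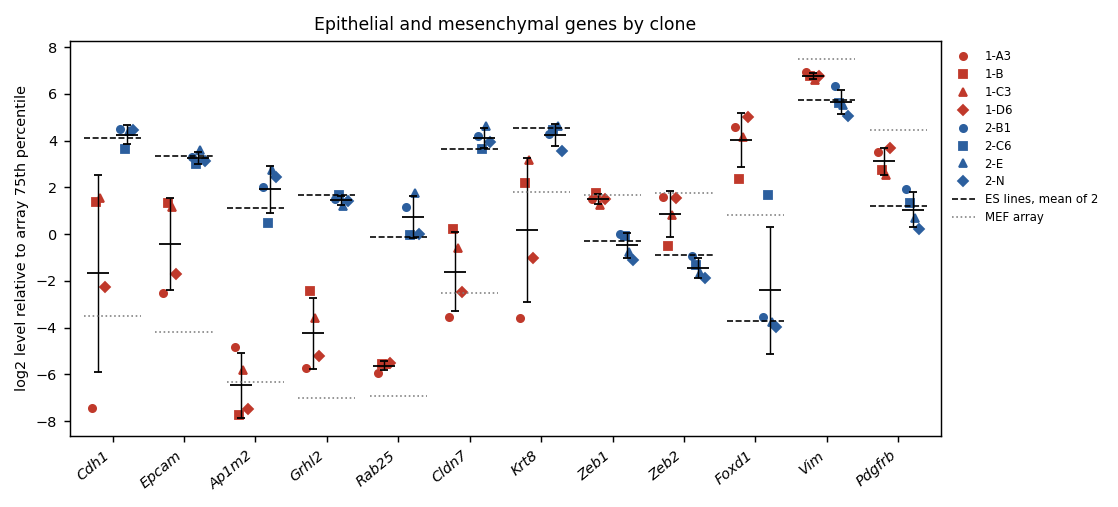
Log2 level relative to the array's 75th percentile for 7 epithelial genes (left), the repressors Zeb1 and Zeb2, and 3 mesenchymal genes, with a point for each clone, black bars for the mean and SD of 4 clones, and lines for the ES mean and the MEF array. iHAC2-iPS clones sit near the ES line for the epithelial genes, and the iHAC1-iPS points fall below them, with 1-A3 and 1-D6 lowest for Cdh1, Epcam and Krt8.

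Zeb1 and Zeb2, the zinc finger repressors of epithelial genes, were higher in iHAC1-iPS. Zeb1 read 1.49, 1.77, 1.26 and 1.51 against 0.02, -0.09, -0.76 and -1.09, a difference of 1.99 (SE 0.24, adjusted p = 1.98e-04). Zeb2 read 1.61, -0.52, 0.80 and 1.54 against -0.94, -1.32, -1.66 and -1.89, a difference of 2.31 (SE 0.42, adjusted p = 0.00173). Both groups were apart for both genes, and the MEF array stood at 1.68 for Zeb1. Snai2 differed by 1.17 (SE 0.35, adjusted p = 0.0219), a call that was lost without 1-D6, 2-E or 2-N, where the difference was 0.96 to 1.01. Twist1 (0.61, SE 0.18) and Snai1 (0.40, SE 0.29) were not called.

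Zeb1 and Zeb2 bind the E-box CACCTG, a motif chosen after these results were seen. It was searched on both strands in RefSeq promoters (GRCm38.p6) that run from 250 bases before to 50 bases after the first start site of a gene. It was found in 15 of the 21 called epithelial genes with a promoter in the table (71.4%), in 29.5% of all genes called lower, in 15.9% of those called higher and in 18.8% of all tested genes with a promoter. The 250 bases before the start are printed for 3 of these genes, on the strand of the gene and ending next to the start site, to show how close the motifs lie to it. Capitals mark CACCTG or its reverse complement CAGGTG.
Ap1m2, chr9:21312334-21312583, minus strand: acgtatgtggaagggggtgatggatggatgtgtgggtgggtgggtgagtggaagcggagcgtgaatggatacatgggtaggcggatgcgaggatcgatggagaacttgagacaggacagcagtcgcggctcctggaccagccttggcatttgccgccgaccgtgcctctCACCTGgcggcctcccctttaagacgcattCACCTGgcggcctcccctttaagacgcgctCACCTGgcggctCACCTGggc
Rab25, chr3:88548280-88548529, minus strand: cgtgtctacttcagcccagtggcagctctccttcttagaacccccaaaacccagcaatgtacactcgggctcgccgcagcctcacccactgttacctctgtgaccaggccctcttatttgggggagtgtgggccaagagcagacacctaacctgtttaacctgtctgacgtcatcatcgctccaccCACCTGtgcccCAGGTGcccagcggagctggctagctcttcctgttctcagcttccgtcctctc
Epcam, chr17:87635729-87635978, plus strand: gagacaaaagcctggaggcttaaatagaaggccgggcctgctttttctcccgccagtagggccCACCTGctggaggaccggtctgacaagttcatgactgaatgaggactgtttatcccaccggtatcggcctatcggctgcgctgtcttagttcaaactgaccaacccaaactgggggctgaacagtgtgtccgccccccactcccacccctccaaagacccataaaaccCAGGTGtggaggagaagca
The Ap1m2 promoter holds the motif 4 times, with its first base 81, 51, 21 and 9 bases before the start. The Rab25 promoter holds it 2 times, at 64 and 53 bases, and the Epcam promoter 2 times, at 187 and 19 bases. A match is a description of the letters, and binding was not measured. Cdh1 has no promoter in the table.

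Fibroblast and mesenchymal genes had calls in the other direction. Of 39 tested fibroblast and mesenchymal genes, 14 were called higher in iHAC1-iPS and the others were not called, with a list median of 1.00. This count was 9 without 1-A3, 8 without 1-D6 and 6 without 2-N. The mean level of the list was 1.67 to 2.56 in the iHAC1-iPS clones and 0.40 to 1.71 in the iHAC2-iPS clones, so that the groups overlapped through 2-B1. Foxd1, a forkhead factor of stromal cells, and the receptor gene Pdgfrb led the list together with Zeb2. Foxd1 read 4.58, 2.34, 4.16 and 4.99 against -3.56, 1.66, -3.77 and -3.96, a difference of 6.43 (SE 1.05, adjusted p = 9.12e-04). 2-C6 stood close to 1-B for Foxd1, and the MEF array read 0.84. Pdgfrb read 3.50, 2.75, 2.51 and 3.70 against 1.93, 1.32, 0.68 and 0.22, a difference of 2.08 (SE 0.41, adjusted p = 0.0026).

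Several genes typical of fibroblasts were not called. Thy1, the surface marker by which fibroblasts are often sorted, read 6.21, 5.79, 5.63 and 6.64 against 6.25, 5.07, 5.24 and 4.33 and did not pass (0.85, SE 0.40, adjusted p = 0.112), but was called at 1.19 without 2-B1. Col1a2 (0.65, SE 0.40), Postn (1.06, SE 0.65) and Prrx1 (0.44, SE 0.32) did not pass either, and 2-B1 lay within the iHAC1-iPS range for all of these genes except Prrx1, where it was above it. Of the other Prrx1 probes, a dim one that no iHAC2-iPS array detected was called at 1.79 (SE 0.54, adjusted p = 0.0217), and the rest were not called. Vim, the intermediate filament protein of mesenchymal cells, was called at 1.12 (SE 0.28, adjusted p = 0.00902), a call that was lost without 2-N, where the difference was 0.93. Acta2, the actin of smooth muscle and myofibroblasts, differed by 1.62 (SE 0.41, adjusted p = 0.0101), with 1-A3 (6.62) and 1-D6 (7.44) highest. A second Acta2 probe was not called (0.64, SE 0.21), and dimmer ones were called at 1.78 and 1.42.

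Genes of the extracellular matrix were called in both directions. Of 39 tested collagens, 16 were called higher and 5 lower, the 5 falling to 1 after normexp background correction. The basement membrane chains Col4a1 and Col4a2 were among the 16. The 16 became 10 without 1-A3 and 8 without either 1-D6 or 2-N, and the 5 became 3 without 1-C3, 1-D6 or 2-B1. Col11a1, a collagen of cartilage fibrils, differed by 2.33 (SE 0.46, adjusted p = 0.00261). Col17a1, a transmembrane collagen of epithelial hemidesmosomes, was at least 5.42-fold lower. Among 39 tested integrins, laminins and nidogens, 9 were called lower and 2 higher. Lamb3, a laminin chain of the epithelial basement membrane, was at least 6.35-fold lower. Itgb4, the integrin chain of hemidesmosomes, read -0.85, 1.74, -0.98 and -0.86 against 2.31, 3.23, 2.34 and 2.35, a difference of -2.80 (SE 0.51, adjusted p = 0.00176). Of 64 matrix proteases and their inhibitors, 14 were called higher and 1 lower, the 14 falling to 5 after normexp correction. Timp3, an inhibitor bound to the matrix, differed by 1.63 (SE 0.38, adjusted p = 0.0062), and Timp4 was at least 8.35-fold higher, with a difference of 1.56 after normexp correction.

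Pluripotency regulators were called lower or not called. Of 28 tested regulators of naive pluripotency, 16 were called lower and 12 were not called, with a median of -1.63. All 28 were detected on an iHAC1-iPS array, and 10 of 17 were called among probes above background on all 16 arrays. Sall4 (-0.53, SE 0.35), Klf2 (0.29, SE 0.14), Tbx3 (-1.10, SE 0.56) and Nanog (-1.05, SE 0.58) were among those that did not pass, and Tbx3 was called at -1.65 without 2-E. A second, dimmer Klf2 probe had the other sign and was not called either (-0.84, SE 0.52). Its means were 1.20 in iHAC1-iPS and 2.04 in iHAC2-iPS clones, beside 5.81 in ES lines. Nanog, the homeodomain factor of the naive state, read -1.07, -0.17, 0.59 and -1.81 against 0.63, -0.85, -0.05 and 2.02, so that the groups overlapped.

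Esrrb, an orphan nuclear receptor that can stand in for Nanog, read -7.36, -4.40, -3.22 and -7.73 against 1.86, 1.35, 0.94 and 3.89, a difference of -7.69 (SE 0.91, adjusted p = 1.69e-04). 2 of the 4 iHAC1-iPS arrays detected it. Tfcp2l1, a factor downstream of LIF, differed by -4.87 (SE 0.60, adjusted p = 2.22e-04), Klf5 by -2.56 (SE 0.45, adjusted p = 0.00134) and Nr5a2, a nuclear receptor that acts on the Pou5f1 promoter, by -3.78 (SE 0.84, adjusted p = 0.00515). Nr5a2 was above background on 2 of 4 iHAC1-iPS arrays. No iHAC1-iPS clone reached the iHAC2-iPS range for Esrrb, Tfcp2l1, Klf5 or Nr5a2, and 2-N was the highest clone for each.

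Genes known mainly as markers of the pluripotent state followed the same pattern. Dppa5a, an RNA-binding protein of ES cells, read -1.72, 0.39, 3.22 and -1.25 against 8.71, 7.68, 8.05 and 9.43, beside an ES mean of 8.66. The difference was -8.31 (SE 0.84, adjusted p = 7.03e-05). Dppa4, which primes developmental genes in early embryos, read -6.59, -2.37, 0.03 and -4.05 against 2.61, 2.48, 2.70 and 3.54, a difference of -6.08 (SE 1.00, adjusted p = 9.75e-04) with 3 of 4 iHAC1-iPS arrays above background, and Dppa2, its partner, differed by -2.29 (SE 0.37, adjusted p = 9e-04). Lin28a, which blocks the let-7 microRNAs, was the exception in kind: 1-B (1.18) and 1-C3 (1.98) were at the level of the iHAC2-iPS clones (1.19 to 1.87), 1-A3 (-7.58) was not detected and 1-D6 read -3.01. Its difference of -3.39 (SE 1.55, adjusted p = 0.103) did not pass, but was called at -4.40 without 1-B and at -4.67 without 1-C3.

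Primed epiblast genes showed no common direction. Of 11 tested, Cdh2, Lef1 and Sall2 were called higher and Dnmt3b lower. Cdh2, which encodes N-cadherin and replaces E-cadherin when epithelia dissolve, read 0.22, 0.40, 0.53 and 0.89 against -2.10, -1.44, -2.85 and -2.72, a difference of 2.78 (SE 0.37, adjusted p = 3.32e-04). A second, dim Cdh2 probe, well above background on 1 of the 8 arrays, was called with the other sign, at -1.44 (SE 0.47, adjusted p = 0.0297). Lef1, the nuclear partner of beta-catenin, differed by 2.75 (SE 0.74, adjusted p = 0.0127). 2-C6 (0.27) lay within the iHAC1-iPS range for Lef1, and the other iHAC2-iPS clones were between -3.63 and -1.94.

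Germline genes were also mostly on the lower side. Of 38 tested, 26 were called lower in iHAC1-iPS and the rest were not called, with a median of -2.17. After normexp correction 15 of 38 were called lower, with a median of -0.62. Where at least 4 of the 8 arrays had to exceed background, 16 of 20 were called lower, and where all 16 had to, 6 of 9 were. Of the 38, 19 were detected on none of the iHAC1-iPS arrays. These genes are silenced by promoter methylation in somatic cells, and many also serve in early embryos. The mean of the list lay between -5.77 and -5.31 in all 4 iHAC1-iPS clones and at -2.90, -3.46, -3.77 and -1.43 in the iHAC2-iPS clones, with 2-N highest.

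Tex19.1, which restrains retrotransposons, read -6.21, -1.36, 0.36 and -4.16 against 3.21, 4.01, 2.63 and 4.57, a difference of -6.45 (SE 1.08, adjusted p = 0.00105), and 3 of the 4 iHAC1-iPS arrays detected it. Mael, a factor of the piRNA pathway, was at least 22.1-fold lower, with iHAC2-iPS levels of -1.13, -1.99, -1.64 and 0.57 and no iHAC1-iPS array above background. Its difference was -2.37 after normexp correction. Ddx4, the germ cell helicase also called Vasa, differed by -3.89 (SE 0.75, adjusted p = 0.00227), and Sycp3, a protein of the meiotic chromosome axis, by -4.80 (SE 0.74, adjusted p = 6.95e-04). 1 of the 4 iHAC1-iPS arrays detected each of the last pair. Piwil2, a piRNA-binding Argonaute seen on 2 of 4 iHAC1-iPS arrays, differed by -4.02 (SE 0.63, adjusted p = 7.34e-04), and Dmc1, the meiotic recombinase, was at least 10.1-fold lower.

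Of the 10 genes with the lowest differences among those whose groups did not overlap, some are known from testis. Ldhc, the lactate dehydrogenase of sperm, was at least 35.1-fold lower, and Cyct, the cytochrome c of testis, seen on 1 of 4 iHAC1-iPS arrays, differed by -7.41 (SE 0.86, adjusted p = 1.55e-04). Ldhc read -0.33, -1.80, -0.28 and 0.89 in the iHAC2-iPS clones, and its difference was -3.04 after normexp correction. A few called members of general classes are also known from testis, and they were picked after their values were seen. Rps4l, a copy of a ribosomal protein gene, read 1.36, 1.23, 1.47 and 2.22 against 5.80, 5.02, 4.19 and 7.22, a difference of -3.99 (SE 0.49, adjusted p = 2.12e-04). Psma8, the proteasome subunit of spermatocytes, seen on 2 of 4 iHAC1-iPS arrays, differed by -3.72 (SE 0.83, adjusted p = 0.00516), and Cox6b2, a testis form of a cytochrome oxidase subunit, by -1.29 (SE 0.32, adjusted p = 0.00922). 2-N had the highest level of all 8 clones for Rps4l, Psma8 and Cyct.

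The E-box CACGTG, which is bound by the Myc and Max family, was searched in the same promoters on both strands. It was present in 12 of the 22 called germline genes with a promoter (54.5%), in 8.72% of all genes called lower, in 7.51% of genes called higher and in 9.40% of all tested genes. Promoters of 3 of these genes are printed in the same layout, with CACGTG in capitals.
Sycp3, chr10:88459337-88459586, plus strand: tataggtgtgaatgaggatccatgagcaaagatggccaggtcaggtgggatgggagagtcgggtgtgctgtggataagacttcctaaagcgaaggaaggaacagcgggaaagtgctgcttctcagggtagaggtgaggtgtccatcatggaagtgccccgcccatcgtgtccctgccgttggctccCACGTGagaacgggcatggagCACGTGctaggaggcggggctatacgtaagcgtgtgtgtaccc
Ddx4, chr13:112652311-112652560, minus strand: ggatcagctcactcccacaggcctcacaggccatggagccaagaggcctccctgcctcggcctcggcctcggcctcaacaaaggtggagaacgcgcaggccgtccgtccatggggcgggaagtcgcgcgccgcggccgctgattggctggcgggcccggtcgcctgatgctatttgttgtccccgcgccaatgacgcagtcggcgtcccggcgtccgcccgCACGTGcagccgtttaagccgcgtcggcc
Mael, chr1:166238745-166238994, minus strand: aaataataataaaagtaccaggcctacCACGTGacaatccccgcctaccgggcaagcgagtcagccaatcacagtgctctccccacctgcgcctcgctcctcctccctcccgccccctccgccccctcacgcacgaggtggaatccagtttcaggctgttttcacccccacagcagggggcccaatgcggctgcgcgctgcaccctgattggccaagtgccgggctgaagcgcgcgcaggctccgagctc
In Sycp3 the motif starts 64 and 43 bases before the start site, in Ddx4 29 bases before it and in Mael 223 bases before it. These windows hold 12, 31 and 18 CpG dinucleotides in the printed 250 bases. Over the whole promoter windows, the median CpG count was 12 for genes called lower, 18 for genes called higher and 18 for all tested genes. Of the other motifs searched on both strands, the AP-1 motif TGACTCA was found in 4.52% of genes called lower and in 4.04% of all tested genes. The Sox or Tcf core ACAAAG was found in 16.2% and 14.9%, and the TATA box letters TATAAA in 9.18% and 9.91%.

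The enzymes that write and erase DNA methylation differed by member. Of 17 tested genes of this machinery, 6 were called lower and 3 higher. Dnmt3l, the cofactor of de novo methylation in germ and ES cells, read -3.79, -3.10, 0.03 and -2.84 against 3.94, 4.24, 2.77 and 6.52, a difference of -6.79 (SE 0.81, adjusted p = 1.82e-04). Dnmt3a, a de novo methyltransferase, differed by -1.86 (SE 0.37, adjusted p = 0.00276), and Dnmt1, the maintenance enzyme, did not pass (0.28, SE 0.15). Tet1, the 5-methylcytosine oxidase of ES cells, read -1.37, -0.69, -0.73 and -1.83 against 0.17, 0.97, -0.02 and 2.20, a difference of -1.98 (SE 0.43, adjusted p = 0.00426). Tet3, the family member more common in differentiated cells, read 0.31, -0.31, -0.19 and 0.36 against -2.46, -0.87, -2.34 and -2.83, a difference of 2.17 (SE 0.35, adjusted p = 8.62e-04). Dnmt1 was the one gene of these 5 whose groups overlapped.

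Dnmt3b, another de novo methyltransferase, ranged widely within iHAC1-iPS. It read -0.76, 3.65, 4.22 and 0.43 against 4.69, 4.64, 4.79 and 3.61, and its call (-2.55, SE 0.90, adjusted p = 0.0416) was lost without 1-A3, 1-D6, 2-B1, 2-C6 or 2-E, where the difference was -2.48 to -1.67. 1-B and 1-C3 were within reach of the iHAC2-iPS clones, and 1-A3 and 1-D6 were not.

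Polycomb genes, which repress developmental genes through histone marks, were called in both directions, 5 higher and 4 lower of 29. The exchange was clearest among the chromobox subunits that read the mark. Cbx7, the form of ES cells, differed by -3.04 (SE 0.54, adjusted p = 0.00153), and Cbx8, a form of differentiated cells seen on 3 of 4 iHAC2-iPS arrays, by 2.60 (SE 0.49, adjusted p = 0.00198). Bmi1, a ring finger subunit known for repressing Cdkn2a, read 0.26, -0.91, -0.44 and 0.40 against -2.60, -1.64, -2.88 and -3.03, a difference of 2.37 (SE 0.33, adjusted p = 3.81e-04). iHAC1-iPS clones were apart from iHAC2-iPS clones in each of these 3 genes. Of 44 imprinted genes, 7 were called higher and 6 lower. Slc22a18 differed by -3.54 (SE 0.46, adjusted p = 2.74e-04) and its neighbour Phlda2, a restrainer of placental growth, by -3.42 (SE 0.83, adjusted p = 0.0076), while Nap1l5 was at least 6.40-fold higher and Ndn, the gene of necdin, differed by 1.88 (SE 0.24, adjusted p = 2.62e-04).

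**Figure D4:**
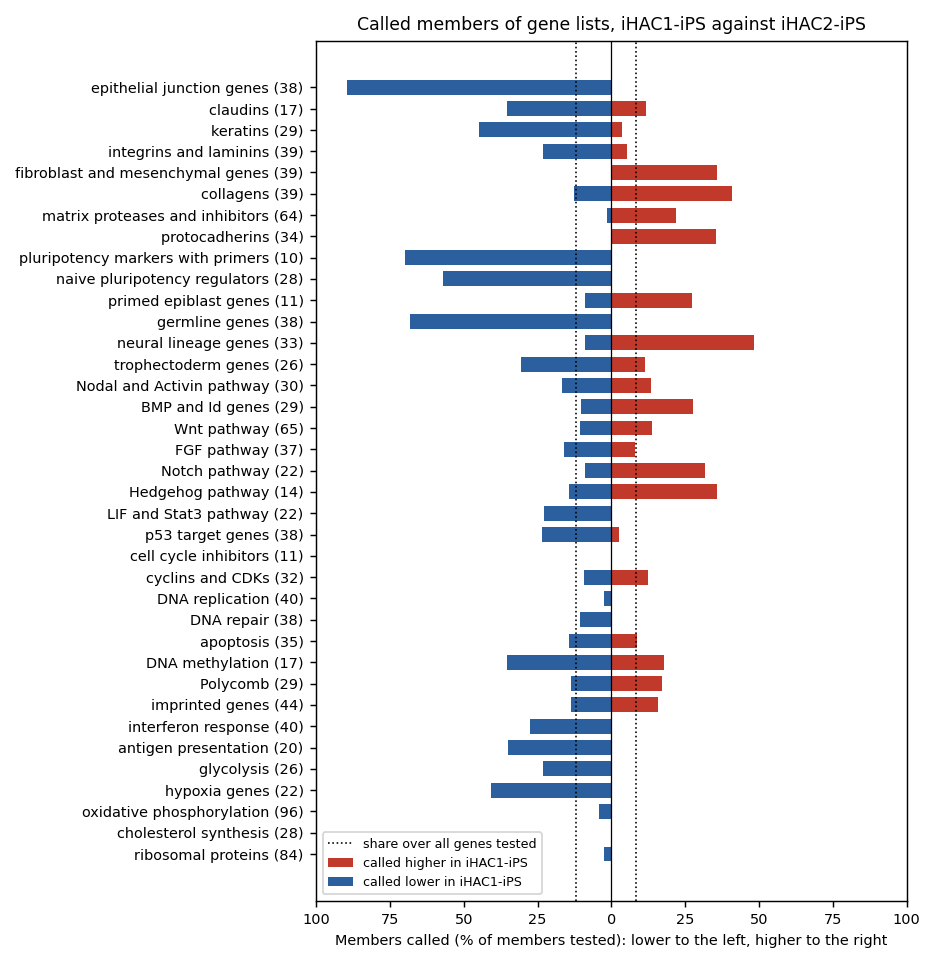
Share of the tested members of 37 gene lists that were called lower (blue, left) or higher (red, right) in iHAC1-iPS, with the number tested in brackets and dotted lines at the shares over all genes (11.9% lower, 8.45% higher). Epithelial, pluripotency and germline lists reach far to the left, neural and collagen lists to the right, and metabolic housekeeping lists stay near 0.

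Neural genes were the class with the largest count on the higher side among cell lineages. Of 33 tested, 16 were called higher and 3 lower, with a median of 1.21. The 16 became 11 of 33 after normexp correction, with a median of 0.32, 11 with the compared groups alone in the fit and 9 of 19 among probes above background on all 16 arrays. Zic1, a zinc finger factor of the dorsal neural tube, read 3.64, 3.20, 3.30 and 4.17 against -2.97, -0.94, -3.46 and -3.64, a difference of 6.33 (SE 0.48, adjusted p = 1.32e-05). The MEF array stood at 2.81 and the ES mean at -2.43. Pax6, the eye and forebrain factor, read -1.60, -2.02, -2.24 and -2.11 against -6.36, -4.39, -6.77 and -6.29, with 1 of 4 iHAC2-iPS arrays above background, and a difference of 3.96 (SE 0.43, adjusted p = 1.03e-04).

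Other neural genes stood among the 10 with the highest differences of those whose groups did not overlap. Insm1, a factor of newborn neurons and endocrine cells seen on 1 of 4 iHAC2-iPS arrays, differed by 5.90 (SE 0.84, adjusted p = 4.28e-04), En2, the midbrain homeobox gene, by 4.95 (SE 0.64, adjusted p = 2.62e-04) and Zfp536, a repressor of neuronal differentiation, by 5.38 (SE 0.59, adjusted p = 1.06e-04). En2 read 3.21, 1.40, 2.56 and 3.32 against -2.98, -0.64, -3.96 and -1.75. Tubb3, the tubulin of neurons, differed by 1.66 (SE 0.30, adjusted p = 0.00163). The summed level of 6 neural markers overlapped between the groups all the same, at 11.7 to 25.9 and 6.99 to 36.9. Sox1, the earliest neural plate marker, was dim in the iHAC1-iPS clones (-4.39 to -3.31), was not above background on any iHAC2-iPS array and was not called. The protocadherins, adhesion molecules best known from neurons, had 12 of 34 called higher and a median of 1.07, 5 of 34 after normexp correction, and 16 of the 34 were not above background on any iHAC2-iPS array. Pcdh8 was at least 3.99-fold higher, and Pcdh18 differed by 2.37 (SE 0.37, adjusted p = 7.38e-04).

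Lineages outside the nervous system showed smaller counts. Trophectoderm genes had 8 of 26 called lower and 3 higher, the 8 falling to 5 after normexp correction. Rhox6 was at least 18.0-fold lower and Elf5, a factor of trophoblast stem cells that 3 of 4 iHAC2-iPS arrays detected, at least 4.39-fold lower. Mesoderm and definitive endoderm genes had 4 of 24 called each way, and the chemokine receptor Cxcr4 differed by 2.80 (SE 0.55, adjusted p = 0.00259), with 2 of 4 iHAC2-iPS arrays above background. Primitive endoderm genes had 4 of 19 called higher and 2 lower (31.6% in all). Hox genes had 3 and 5 of 37 (21.6% in all), beside 20.3% of all genes. The 3 Hox genes became 5 without 2-B1, and the 5 became 0 after normexp correction and 2 after quantile normalization. Among 24 blood genes, 5 were called higher and 4 lower. The 5 became 2 without 1-A3 or 1-D6 and after normexp correction, and 3 without 2-N.

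Signalling genes were described by pathway, each from ligand to target. In the Nodal pathway, whose ligand keeps the epiblast undifferentiated, Nodal read -3.05, -0.19, 1.28 and -3.22 against 4.09, 2.81, 3.37 and 3.36, a difference of -4.71 (SE 0.80, adjusted p = 0.0012). Its feedback inhibitors Lefty1 (-1.38, SE 0.94) and Lefty2 (-3.38, SE 1.43) did not pass, and for Lefty2 1-B (2.56) and 1-C3 (2.42) were within the iHAC2-iPS range of 1.58 to 3.59 while 1-A3 (-5.62) and 1-D6 (-1.34) were below it. Lefty2 was called at -4.40 without 1-B and at -4.35 without 1-C3. Over the 30 genes of the list, 4 were called higher and 5 lower. The 4 became 7 without 1-B or 2-C6, and the 5 became 3 without 1-D6.

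BMP ligands and receptors lay on opposite sides. Of 29 genes, 8 were called higher and 3, all ligands, lower. The 3 became 5 without 2-C6. Bmp8b read -7.29, -4.24, -2.68 and -5.81 against 0.54, -0.08, 0.68 and 0.03, a difference of -5.30 (SE 0.72, adjusted p = 3.49e-04), with 2 of 4 iHAC1-iPS arrays above background, and Bmp7, with 3, differed by -4.32 (SE 0.92, adjusted p = 0.00412). The receptor gene Acvr1 read 1.65, 0.27, 0.25 and 1.45 against -1.73, -0.93, -1.87 and -2.50, a difference of 2.66 (SE 0.37, adjusted p = 3.76e-04). The groups were apart for each of these 3 genes.

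Of 65 Wnt genes 16 (24.6%) were called, 9 higher and 7 lower, beside 20.3% of all genes. The 7 became 4 after normexp correction. The ligand Wnt3a, which 3 of 4 iHAC2-iPS arrays detected, was at least 2.63-fold lower and the ligand Wnt5a at least 2.63-fold higher. Rnf43, a ubiquitin ligase that removes Wnt receptors, read -5.78, -3.90, -3.49 and -5.89 against -0.46, -2.38, 1.07 and -1.43, a difference of -3.96 (SE 0.71, adjusted p = 0.00152), and 2 of 4 iHAC1-iPS arrays detected it. FGF genes had 6 of 37 called lower and 3 higher, 24.3% in all beside 20.3% of all genes. The 3 became 6 without 1-B and 5 without 2-B1 or 2-C6. The 6 became 3 after normexp correction. Fgf21, a metabolic hormone, was at least 9.73-fold lower.

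Notch genes had 7 of 22 called higher and 2 lower. The higher genes were mainly targets and modifiers of the receptor. Lfng, a glycosyltransferase that tunes the ligand choice of Notch, was at least 6.69-fold higher. The target Heyl, seen on 1 of 4 iHAC2-iPS arrays, read -0.92, -1.34, -2.004 and -0.58 against -4.27, -3.27, -4.94 and -6.41, a difference of 3.51 (SE 0.61, adjusted p = 0.00134), and the targets Hey1 and Hes1 differed by 1.77 (SE 0.42, adjusted p = 0.00664) and 1.24 (SE 0.29, adjusted p = 0.00598). Rbpj, the DNA-binding partner of Notch, was on the lower side (-1.12, SE 0.27, adjusted p = 0.00783), a call that was lost without 2-N, where the difference was -0.83. The Hedgehog transducer Smo read 5.17, 4.71, 4.93 and 5.12 against 3.78, 3.41, 3.67 and 2.49, a difference of 1.64 (SE 0.24, adjusted p = 5.07e-04), and the effector Gli3 differed by 1.37 (SE 0.30, adjusted p = 0.00454). Gli1, the usual readout of an active pathway, lay on the lower side at -1.41 (SE 0.37, adjusted p = 0.0111), and Ptch1, another readout, did not pass (-0.66, SE 0.33). Of 14 Hedgehog genes, 5 were called higher and 2 lower, and the 5 became 3 without 1-A3, 1-D6 or 2-E and after normexp correction.

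In the LIF pathway, through which the culture medium maintains pluripotency, 5 of 22 genes were called, each lower. This is 22.7%, beside 11.9% of all genes called lower and 20.3% called in all. The receptor subunit Il6st (0.15, SE 0.17) and Stat3, its transcription factor (0.55, SE 0.13, adjusted p = 0.00577), were not called. The targets Pim1 and Pim3, kinases that promote survival, differed by -1.55 (SE 0.25, adjusted p = 8.37e-04) and -1.62 (SE 0.27, adjusted p = 0.00113). A second, dimmer Pim1 probe was not called (-0.52, SE 0.30). Mcl1, a survival protein on the same list, read 3.67, 3.90, 3.87 and 3.83 against 5.20, 4.66, 5.71 and 5.47, a difference of -1.44 (SE 0.22, adjusted p = 5.91e-04), with the iHAC1-iPS clones in a narrow range below all others.

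Of 11 tested cell cycle inhibitors limma called 0 in either direction, with 4 at an unadjusted p under 0.05, all higher. Of 40 DNA replication genes 1 was called, and of 32 cyclins, kinases and mitotic genes 4 were called higher and 3 lower, 21.9% in all beside 20.3% of all genes. The 3 became 5 without 1-C3 or 2-B1. Mki67, the proliferation antigen, read 5.38, 5.13, 4.94 and 5.003 against 5.80, 4.97, 5.67 and 5.03 and did not pass (-0.25, SE 0.19). Ccnd2, a G1 cyclin, differed by 1.76 (SE 0.33, adjusted p = 0.00217) and Ccnb2, a mitotic cyclin, by -1.24 (SE 0.19, adjusted p = 6.95e-04).

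DNA repair genes had 4 of 38 called, each lower, a share of 10.5% beside 11.9% of all genes. Fanci, of the Fanconi pathway for crosslinked DNA, differed by -1.53 (SE 0.25, adjusted p = 0.00103), while a second Fanci probe was not called. Of 35 apoptosis genes, 3 were called higher and 5 lower, 22.9% in all beside 20.3% of all genes. The 5 became 3 without 1-D6 and after normexp correction, and the 3 became 5 without 2-B1. The pro-death gene Bik differed by -1.93 (SE 0.38, adjusted p = 0.0025). Tert, the catalytic subunit of telomerase, read -2.86, -1.60, -2.74 and -2.77 against -1.19, -0.74, -0.10 and -0.59, a difference of -1.84 (SE 0.30, adjusted p = 0.00101), and Rif1, a telomere and replication timing factor with high levels in ES cells, differed by -1.80 (SE 0.16, adjusted p = 2.99e-05). All iHAC1-iPS clones were below all iHAC2-iPS clones for both.

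Interferon-stimulated genes were called lower in iHAC1-iPS in 11 of 40 and antigen presentation genes in 7 of 20, with medians of -0.80 and -0.89. The antigen presentation count was 4 without 1-D6, 11 without 2-N and 4 with the compared groups alone in the fit. Psmb9, a subunit of the immunoproteasome, read -2.65, -1.58, -1.31 and -3.27 against 1.63, -0.50, 1.79 and -0.26, a difference of -2.87 (SE 0.55, adjusted p = 0.00231). H2-K1, a classical MHC class I heavy chain, read 2.63, 3.62, 3.54 and 2.57 against 5.04, 4.09, 4.99 and 3.57, with 2-N in the iHAC1-iPS range, and a difference of -1.33 (SE 0.34, adjusted p = 0.00945). Of its other probes, those at -1.41 and -1.15 were called and the one at -0.44 (SE 0.23) was not. Bst2, which tethers budding viruses, differed by -2.03 (SE 0.43, adjusted p = 0.00382), Ifitm1, a membrane protein also high in germ cells, by -2.99 (SE 0.56, adjusted p = 0.00208), and Oas3, a sensor of double-stranded RNA that 3 of 4 iHAC2-iPS arrays detected, was at least 4.16-fold lower. Stat2, a subunit of the interferon-activated factor, differed by -1.72 (SE 0.35, adjusted p = 0.00326). 2-B1 and 2-E had the highest list means, -0.99 and -1.64 for interferon genes beside -2.88 to -2.34 in iHAC1-iPS clones, and the 2 groups overlapped through 2-N (-2.35).

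Chemokines and cytokines went the other way, with 10 of 39 called higher and 4 lower, although the 10 became 6 without 1-A3, 1-C3 or 2-N, 5 without 2-E and 4 without 1-D6. They were 5 after normexp correction. Cxcl5, a chemokine for neutrophils, was at least 2.83-fold higher.

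Energy metabolism differed in glycolysis and in the response to low oxygen. Of 26 glycolytic genes, 6 were called, each lower, and of 22 hypoxia genes 9, each lower, with medians of -0.60 and -0.67. The list means did not overlap, at 1.26 to 1.57 against 2.12 to 2.54 for hypoxia genes and 3.75 to 4.05 against 4.38 to 4.79 for glycolysis. Slc2a1, the basal glucose transporter, read 4.03, 6.29, 5.93 and 5.10 against 6.81, 6.85, 7.07 and 6.89, a difference of -1.56 (SE 0.38, adjusted p = 0.00735). Pfkl, a form of the rate-setting phosphofructokinase, differed by -1.25 (SE 0.17, adjusted p = 3.39e-04), Aldoc, an aldolase, by -3.30 (SE 0.39, adjusted p = 1.62e-04), and Gapdh, which stood well below 2-fold, by -0.62 (SE 0.14, adjusted p = 0.00494).

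Among hypoxia genes, the prolyl hydroxylase Egln3 read 0.31, 0.78, 0.98 and 0.30 against 1.99, 2.42, 2.87 and 2.57, a difference of -1.87 (SE 0.21, adjusted p = 1.26e-04). The mitophagy receptor Bnip3 differed by -1.30 (SE 0.22, adjusted p = 0.00121) and Adm, a vasodilator peptide, by -2.43 (SE 0.29, adjusted p = 1.78e-04). Vegfa, the vascular growth factor, did not pass at its brightest probe (-0.43, SE 0.23), while 2 other probes were called lower at -1.36 and -1.14. iHAC1-iPS clones were below all iHAC2-iPS clones for Egln3, Bnip3 and Adm. Oxidative phosphorylation had 4 of 96 genes called, each lower and each a tissue-restricted subunit, among them Cox7a1, a heart and muscle form, at -2.99 (SE 0.46, adjusted p = 6.35e-04).

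Enzymes for which ES cells are known stood out within amino acid metabolism. Tdh, threonine dehydrogenase, on which mouse ES cells depend, read -1.71, 3.14, 4.59 and 1.83 against 6.32, 6.53, 5.65 and 7.20, a difference of -4.46 (SE 0.98, adjusted p = 0.00473). Cbs, which turns homocysteine into cystathionine, differed by -2.46 (SE 0.30, adjusted p = 2.16e-04). Across 26 threonine and one-carbon enzymes, 3 were called each way, 23.1% in all beside 20.3% of all genes. Slc7a11, the cystine importer, was at least 5.24-fold higher. The metallothioneins Mt1 and Mt2, which bind zinc, differed by -1.60 (SE 0.31, adjusted p = 0.00258) and -2.54 (SE 0.32, adjusted p = 2.2e-04), and the chaperones Hspb1 and Hspa1a by -2.03 (SE 0.29, adjusted p = 4.45e-04) and -1.59 (SE 0.30, adjusted p = 0.00203). Mt2 read 5.24, 4.11, 4.996 and 5.48 against 6.83, 7.44, 7.87 and 7.85, and no clone crossed between the groups.

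Several housekeeping classes had few or no calls. limma called 0 of 28 cholesterol synthesis genes (10 at an unadjusted p under 0.05, 8 of them lower), 0 of 21 genes of the unfolded protein response (2 higher and 4 lower), 0 of 40 ribosome biogenesis genes (2 higher and 4 lower) and 0 of 78 mitochondrial ribosomal proteins (15 higher and 11 lower). Of 84 ribosomal protein genes 2 were called, Rps4l and Rpl3l, although 36 were lower at an unadjusted p under 0.05 and the median was -0.24. Large gene families divided more evenly. Zfp genes had 38 called in each direction of 337 (22.6% in all) and solute carriers 35 higher and 51 lower of 324 (26.5%). Olfactory receptors had 12 higher and 21 lower of 311 (10.6%), and the share over all genes was 20.3%. The olfactory receptor counts were unstable, at 7 higher without 1-A3, 12 and 7 lower without 1-C3 and 1-D6, 25 higher and 3 lower after quantile normalization, and 0 in either direction after normexp correction. Zfp genes then had 18 called higher, and solute carriers 16 higher and 30 lower.

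**Figure D5:**
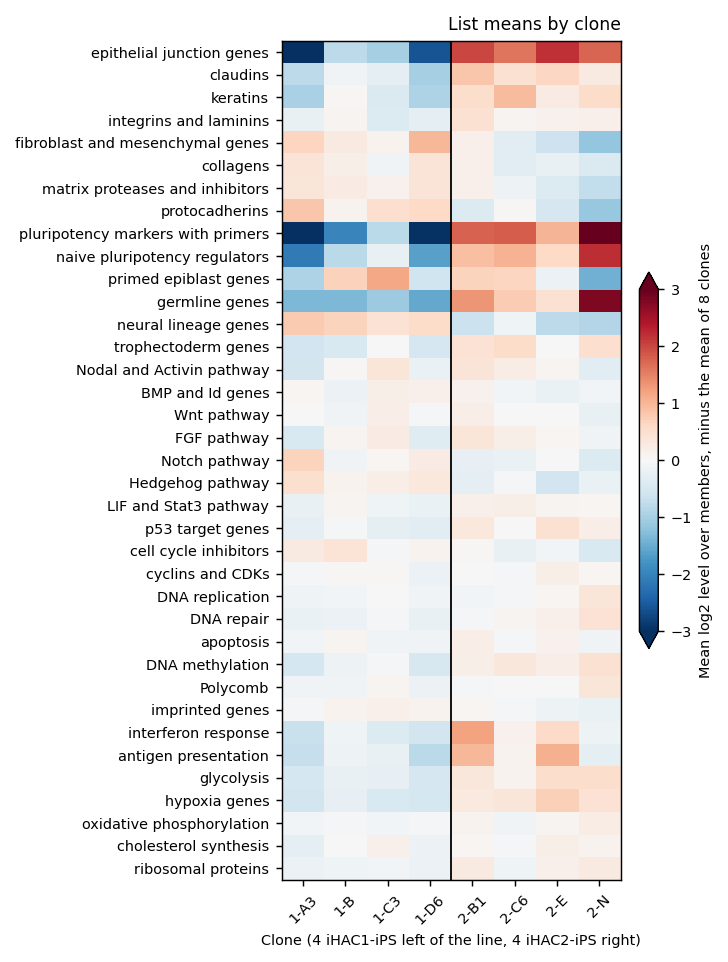
Mean log2 level over the members of 37 gene lists in each of the 8 clones, minus the mean of that list over the 8 clones (red above, blue below, colours saturating at 3). 1-A3 and 1-D6 are lower than 1-B and 1-C3 for epithelial and pluripotency lists, and 2-N is the highest clone for pluripotency and germline lists.

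Sex-linked genes separated the groups, and the labels do not give the sex of the embryos. A difference in sex between the 2 groups of clones could therefore not be told apart from vector. Its part in the other results was not tested. Of 6 tested Y-linked genes, 4 were called lower in iHAC1-iPS. Eif2s3y read -2.13, -2.02, -2.98 and -1.62 against 2.50, 2.13, 2.66 and 2.26, a difference of -4.57 (SE 0.57, adjusted p = 2.25e-04), and Ddx3y differed by -3.69 (SE 0.34, adjusted p = 4.5e-05). Kdm5d was at least 7.75-fold lower and Uty at least 4.49-fold lower, neither of them above background on an iHAC1-iPS array. Xist, the RNA that silences an X chromosome, read 0.27, 2.56, 0.25 and 1.84 against -0.14, -1.37, -0.85 and -1.02, a difference of 2.08 (SE 0.50, adjusted p = 0.0073). Outside the Y, the median difference of a chromosome ran from -0.17 on chromosome 7, with 15.5% of its genes lower, to 0.05 on the X, with 12.6% higher.

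The clones of each group were compared with one another over the 31387 tested probes with a value on every array. The root mean square log2 difference between 2 clones was 0.646 to 0.927 within iHAC1-iPS, 0.767 to 1.07 within iHAC2-iPS and 0.986 to 1.66 between the groups, where the median was 1.37. The distance of a clone from the mean of the other 3 in its group was 0.734, 0.672, 0.607 and 0.608 for the iHAC1-iPS clones and 0.698, 0.838, 0.723 and 0.896 for the iHAC2-iPS clones. Group means were 0.655 ± 0.0605 and 0.789 ± 0.0940 (SD, n = 4), and the exact permutation test gave p = 0.0857 (two-sided), where 4 against 4 clones can reach 0.0286 at the least. The distances were not recomputed for permuted groups, and those within a group share clones. This p therefore describes the listed values and is not an exact p for a difference in clone spread. 2-N and 2-C6 were the clones farthest from their group.

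2-C6 and 1-B were the clones that most often stood nearest to the other group. 2-C6 was the closest iHAC2-iPS clone to the iHAC1-iPS group for 47.3% of the higher genes and 53.1% of the lower ones, and 1-B was the closest iHAC1-iPS clone to the iHAC2-iPS group for 51.9% and 39.3%. Within iHAC1-iPS, the genes Cdh1, Epcam, Krt8, Dppa4, Tdh, Lin28a, Lefty2 and Dnmt3b all placed 1-A3 and 1-D6 below 1-B and 1-C3, and these genes were picked after their values were seen. The number of calls over all probes was 6270, and it was 7345 without 2-C6 and 5010 without 1-D6.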

How the data were processed

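RNA of each clone or line was labelled with Cy3 and hybridised to a 1-colour Agilent mouse array, 1 array per sample. The deposited scanner files hold intensity values that the authors obtained with Agilent Feature Extraction (versions 10.7.1.1 and 10.7.3.1 per the file headers), and the processed signal is already background-subtracted. The authors also deposited a value table on a log2 scale, normalized with GeneSpring GX, which served as an alternative. Control spots and spots with an outlier flag were left out, each array's 75th percentile was subtracted from log2 of the processed signal, and replicate spots were averaged. A probe was kept when 1 or more of the 16 arrays showed it well above background (31415 of 41174), and a gene was read by its probe with the highest mean, which gave 21475 genes. Of 28026 probes with a RefSeq accession, 26795 were named through it, and the others kept the name of the array design (mm9).

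limma (3.58.1, R 4.3.3) was fitted to all 16 arrays in 6 groups, with Benjamini-Hochberg adjustment over all probes tested and a threshold of 0.05 with a 2-fold difference. On simulated data with 200 changed probes, this comparison recovered 134 and made 6 false calls among 31387 probes. The simulated noise was independent between probes and arrays and held no shift between scan sessions. The number of false calls therefore does not bear on such a shift in the real data. Where 1 group had no array above background, a lower bound of the fold was computed, from the higher of the lowest detected signal and the gene's own on each array of the dim group. The distance of a clone from the other clones of its group was the root mean square log2 difference from their mean, over 31387 probes with a value on every array, and was compared by an exact permutation test (Python 3.11.15, scipy 1.17.1). The test permuted the computed distances and did not recompute them for each permuted grouping. The number of arrays limits the precision.

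Named genes were the cassette genes, Trp53, Cdkn1a, Cdkn2a, Mdm2 and pluripotency markers, the 10 genes with the largest differences in each direction among those without overlap and detected on all 4 arrays of the brighter group, and the 2 called members with the largest differences of each symbol list. Every other gene named was chosen after its values were seen. The members and the 70 gene lists were chosen with earlier results of these data known. Promoters came from RefSeq (GRCm38.p6). Alternatives were normexp correction, quantile normalization, the deposited table, other filters, slide as a random block, the compared groups alone, 1 probe per gene, and leaving out each clone.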

Additional observations from a re-analysis of the deposited data

Results flagged for a closer look

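In a group of 4 clones, a clone was listed when its gap to the nearest other clone, divided by the range of the group, exceeded Dixon's critical value. Of 554 groups of values examined, 26 held such a clone, and chance alone lists about 1 in 20 groups. 2-C6 accounted for 8 of the 26, 1-B and 2-N for 5 each.

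2-C6 stood apart from the other iHAC2-iPS clones with a log2 level of 1.66 for Foxd1, -1.13 for Slc10a4, -1.70 for Avil, 3.64 for Cdh1, -2.18 for Cldn4, 3.23 for Itgb4, 6.87 for Klf2 and 7.31 for Gapdh. 2-N stood apart at 3.61 for Dnmt3b and 1.39 for Calcoco2, and in its means over the Polycomb list (1.28), the pluripotent cell surface list (1.45) and the Y-linked list (-2.68). 2-B1 stood apart in its mean over integrins and laminins (-0.84).

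Among the iHAC1-iPS clones, 1-B stood apart at 0 for Lef1, -1.60 for Tert and 1.74 for Itgb4, and in its means over the apoptosis list (0.73) and the S100 and annexin list (-0.10). 1-A3 stood apart at -6.21 for Trp63, -5.93 for Rab25 and 3.45 for Stat3. 1-D6 stood apart at 2.90 for Klf4 and -3.19 for Ddb2, and 1-C3 at -3.56 for Bik and -5.72 for Dmc1. The values of Trp63 and Rab25 in 1-A3 and of Dmc1 in 1-C3 lay below the lowest signal well above background on those arrays (-5.32 and -5.54).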

How the results depend on the processing

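The number of probes called, 6270, was 2612 after normexp background correction and 3224 with probes well above background on all 16 arrays, where 19935 probes were tested. It stayed within 1.5 times of 6270 under the other alternatives, from 5010 to 7345 when a clone was left out. The group difference in distance from the other clones, -0.134, was -0.121 after normexp correction and -0.219 after quantile normalization, both past the threshold (exact p = 0.0286, the smallest possible), and lay between -0.231 and -0.0704 when a clone was left out. List medians changed sign for the cassette genes (-0.75), trophectoderm genes (0.025) and pluripotent cell surface genes (0.31) with probes well above background on all 16 arrays, and for two-cell stage genes (0.0742) and claudins (0.0056) under quantile normalization. None of the 205 genes examined changed direction, and 134 of 173 called genes kept the call under every alternative. The calls lost after normexp correction included those of Trp63, Bik, Elf5, Oas3, Uty, Col17a1, Wnt3a, Wnt5a, Lamb3, Hes1, Gli1, Fas and Cxcl5. Those lost with the compared groups alone in the fit included Dnmt3b, Trp63, Krt8, Tdgf1 and Calcoco2. Counts of calls moved by over 1.5 times in 19 gene lists after normexp correction, in 24 with the filter on all 16 arrays, which tests fewer genes, and in 4 with the compared groups alone in the fit; lists with under 5 calls in both fits were not counted. Heat shock genes called lower were 5 in place of 8 and fatty acid genes called higher 3 in place of 5 after normexp correction, and potassium channels 3 higher and 4 lower in place of 7 and 10. The causes were not tested. No paired analysis was possible because the iHAC1-iPS and iHAC2-iPS clones came from separate transfer experiments. The self-test recovered 67% of the changed probes, and dim probes have only a bound.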
